A study of Mus musculus with 92 samples.

Results

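The set described here holds 9 genes of muscle growth control, and 9 of 9 were found by gene symbol among the 13441 genes measured in quadriceps muscle. They are Mstn, its receptors Acvr2b and Acvr1b, the signal transducer Smad3, the inhibitors Smad7 and Fst, and the growth factor Igf1 with its receptor Igf1r and its binding protein Igfbp5. The set was chosen by name as the myostatin and IGF genes of muscle growth control, with no measured value in the rule. The 92 samples were quadriceps of DOz mice, an outbred stock, all on chow throughout life and about 18 to 20 weeks old. The labels give no sex, genotype or other treatment, so all 92 samples formed 1 group and the data allow levels, spread and covariation between animals only. Each sample gave 1 library of polyadenylated RNA. A sample is called an animal below, although the labels do not say outright that each came from a separate mouse, and animals are named by their number in accession order.

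Myostatin, the product of Mstn, is a secreted factor made by muscle fibres that limits muscle growth. It binds the type II receptor Acvr2b, which brings in the type I receptor Acvr1b and leads to phosphorylation of Smad2 and Smad3, while follistatin, the product of Fst, captures myostatin outside the cell and Smad7 blocks the signal inside it. Insulin-like growth factor 1 acts the other way: it binds Igf1r and, through receptor adaptors, PI3K, AKT and mTORC1, raises protein synthesis, and Igfbp5 is a binding protein that holds IGFs in the tissue.

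Values are log2 expression on a scale where a library, taken off the log, adds up to a median of 1006085, and the depth of each library is unknown, so every precision below comes from the spread between animals. Of the muscle markers, Myh4, the fast IIb myosin heavy chain, stood at 15.90 ± 0.24 (SD, n = 92), while Myh7, the slow myosin, ranged from 0.51 to 8.41. Libraries 29, 84, 69 and 1 stood apart: 6.50%, 6.38%, 4.80% and 2.41% of all genes lay beyond 3 SD of the gene's mean there, against at most 1.85% in any of the other 88. Results that rest on these 4 libraries are given with and without them. A library's own tendency for genes with long exons to read high or low, called the length trend below, also differed between libraries: the Spearman correlation over genes of the library's deviations with merged exon length ranged from -0.40 in animal 29 to 0.24. In bulk tissue, fewer cells of a type and less RNA per cell cannot be told apart.

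Promoter sequence is shown for Mstn, Acvr1b and Igfbp5, because Mstn is the muscle-made ligand and because Acvr1b and Igfbp5 were the pair of the set that rose and fell together most closely. The bases are those just before the transcription start in RefSeq on GRCm38.p6, and capitals mark matches to CANNTG, the E-box core to which myogenic and clock factors of the helix-loop-helix type bind. Of the 9 genes, 7 had an entry, and Fst and Smad7 did not.
Mstn, chr1:53061390-53061639, plus strand: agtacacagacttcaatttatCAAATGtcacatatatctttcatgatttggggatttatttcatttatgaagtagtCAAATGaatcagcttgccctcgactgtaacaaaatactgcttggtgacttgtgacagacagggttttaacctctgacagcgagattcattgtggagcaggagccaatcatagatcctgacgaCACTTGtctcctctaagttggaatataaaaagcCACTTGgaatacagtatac
Acvr1b, chr15:101173822-101174066, plus strand: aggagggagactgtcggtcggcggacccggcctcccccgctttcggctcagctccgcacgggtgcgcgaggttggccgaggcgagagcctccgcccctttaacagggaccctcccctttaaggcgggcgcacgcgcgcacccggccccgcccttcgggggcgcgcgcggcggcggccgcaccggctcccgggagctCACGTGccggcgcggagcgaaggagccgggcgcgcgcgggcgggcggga
Igfbp5, chr1:72874885-72875115, minus strand: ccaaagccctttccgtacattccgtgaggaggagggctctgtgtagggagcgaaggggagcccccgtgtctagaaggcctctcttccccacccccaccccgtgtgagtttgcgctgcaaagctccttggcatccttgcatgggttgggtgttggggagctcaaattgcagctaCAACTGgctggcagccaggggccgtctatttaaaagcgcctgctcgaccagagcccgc
The Mstn window held 4 CANNTG matches, the farthest beginning 229 and the nearest 19 bases before the start, and at least 1 such match was present in 66.2% of all 32851 RefSeq windows of 250 bases, read on both strands. It also held 1 TATAAA, found in 12.4% of windows, and 2 CAGAC, the Smad-binding letters, found in 42.2%. The Acvr1b window held the only CACGTG among the 7, beginning 54 bases before the start. CACGTG is the clock form of the E-box, is counted as a CANNTG match too, and was present in 6.02% of all windows. The Mstn window was 38.4% G or C and the Acvr1b window 78.8%, against a median of 52.4% over all windows. These are matches to letters and do not show that a factor is bound there.

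Myostatin itself (Mstn, ENSMUSG00000026100, chr1:53061640-53068079 on the plus strand of GRCm38, 3 exons) was abundant and varied more than most genes. Its log2 level was 4.48 in the lowest animal, 6.48 at the median and 7.26 in the highest, with a mean of 6.45 ± 0.45 (SD, n = 92). The lowest value came from animal 84 and lay well below the next lowest, 5.48, while the other 91 animals formed a continuous range. On the linear scale the highest animal had 6.85 times the lowest, and 3.43 times without the 4 libraries.

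Of the receptors, Acvr1b (ENSMUSG00000000532, chr15:101174067-101213684, plus strand, 9 exons), the type I kinase that myostatin shares with activin, ranged from 4.62 through a median of 5.34 to 6.08. Its mean was 5.35 ± 0.31, and no animal stood away from the rest. Acvr2b (ENSMUSG00000061393, chr9:119402118-119434995, plus strand, 11 exons), the type II receptor, ranged from 1.45 through 2.61 to 3.83, with a mean of 2.63 ± 0.49. Animals 3 and 27 were its lowest and highest, and both ends were continuous with the other animals. The sister type II receptor Acvr2a was above Acvr2b in 92 of 92 animals, by 2.53 ± 0.46 on the log2 scale after division by exon length.

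Inside the cell, Smad3 (ENSMUSG00000032402, chr9:63646767-63757994, minus strand, 9 exons) ranged from 5.95 through 6.88 to 7.77, with a mean of 6.86 ± 0.35. Its partner Smad2 was lower per length in 92 of 92 animals, by 3.55 ± 0.43 on the log2 scale. Smad7 (ENSMUSG00000025880, chr18:75367529-75395935, plus strand, 4 exons), which removes activated receptors, ranged from 1.15 through 2.64 to 3.47, with a mean of 2.62 ± 0.43. Animal 84 was lowest for both Smad genes, as it was for Mstn, and its Smad7 lay away from the next lowest animal, at 1.77.

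Follistatin (Fst, ENSMUSG00000021765, chr13:114452290-114458951, minus strand, 6 exons) ranged from 1.31 through 2.74 to 4.01, with a mean of 2.71 ± 0.50. Its locus overlaps Gm47040 on the opposite strand, and reads of the 2 cannot be told apart if strand was not used in counting. Mstn exceeded Fst per length in 92 of 92 animals, by 4.50 ± 0.67 on the log2 scale. Fstl3, a relative of follistatin that also binds myostatin, was below Fst in 92 of 92 animals, and the follistatin-like gene Fstl1 was above Fst in 92 of 92.

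On the IGF side, Igf1 (ENSMUSG00000020053, chr10:87858265-87937042, plus strand) had the widest range of the 9 genes over all 92 animals. It ran from 2.54 in animal 1 through a median of 4.59 to 5.66 in animal 48, with a mean of 4.54 ± 0.57. Animal 1 lay below the next lowest value, 3.21, and the rest were continuous. The highest animal had 8.68 times the lowest on the linear scale, and 5.47 times without the 4 libraries, where Fst, at 6.51 times, had the widest range.

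Igf1r (ENSMUSG00000005533, chr7:67952827-68233668, plus strand, 21 exons) had the smallest SD of the 9, with a mean of 4.03 ± 0.28 and values from 3.15 in animal 29 through 4.02 to 4.71. The insulin receptor gene Insr exceeded it per length in 92 of 92 animals, by 2.68 ± 0.29 on the log2 scale. Igfbp5 (ENSMUSG00000026185, chr1:72857932-72874884, minus strand, 4 exons) ranged from 8.93 through 9.97 to 10.96, with a mean of 9.95 ± 0.37 and no animal apart. Each of the 4 other IGF binding proteins compared with it, Igfbp3, Igfbp4, Igfbp6 and Igfbp7, was lower per length in 92 of 92 animals, by between 2.47 and 5.68 on the log2 scale.

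**Figure D1:**
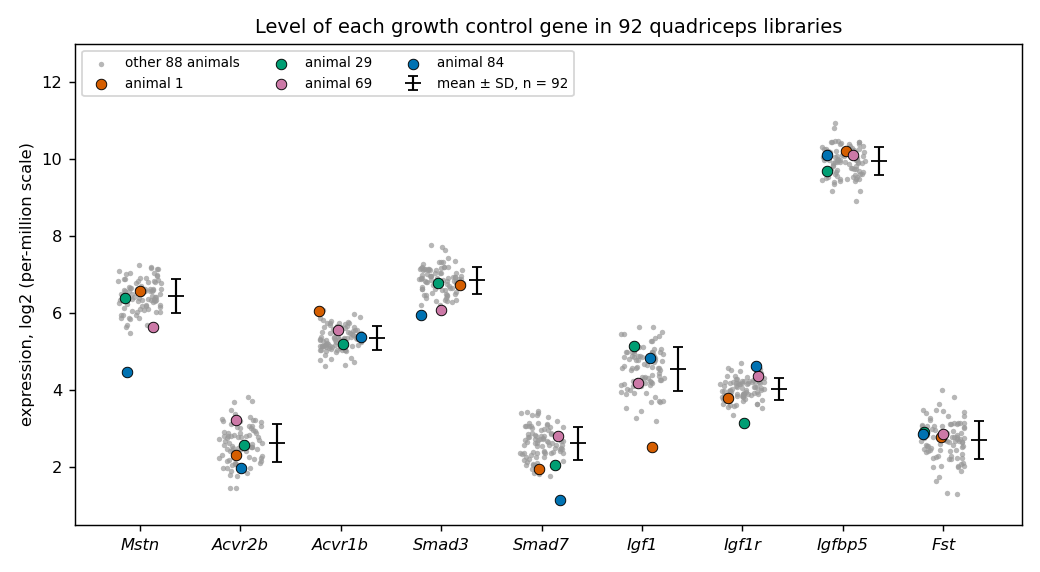
Log2 expression level (vertical axis) of the 9 genes in the 92 quadriceps libraries, 1 point per animal, with the 4 libraries that stand apart in colour and the mean ± SD over 92 animals beside each gene. Animal 84 is lowest for Mstn (4.48), Smad3 (5.95) and Smad7 (1.15), animal 1 for Igf1 (2.54) and animal 29 for Igf1r (3.15).

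Divided by merged exon length, the order of the mean log2 levels was Igfbp5 at 7.36, Mstn at 5.01, Smad3 at 4.39, Acvr1b at 3.21, Igf1 at 1.24, Acvr2b at 0.66, Fst at 0.51, Smad7 at 0.44 and Igf1r at -0.04. Igfbp5 was above Mstn, Smad3 above Acvr1b and Acvr1b above Igf1 in 92 of 92 animals. Mstn was above Smad3 in 81 of 92. The lower end was not separated beyond the spread: Acvr2b was above Fst in 50 of 92 animals and Fst above Smad7 in 51 of 92. With the length of the longest coding transcript, Fst at 1.21 came before Acvr2b at 0.97, and Smad7 and Igf1r both stood at 0.52. This order and the comparisons per length above take the deposited values as not yet divided by length, which the labels do not state. Without the division Smad3 (6.86) stood above Mstn (6.45), and Igf1r (4.03) above Fst (2.71), Acvr2b (2.63) and Smad7 (2.62).

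Every gene of the set had a larger SD than the trend over all genes gives at its mean level. The log2 ratio of the SD to that trend had a median of 0.54 in the set and of -0.01 over all genes, of which 49% lay above 0. Igf1 had a ratio of 1.27 and Mstn of 1.12, and 3.65% and 5.02% of all genes had a larger one. Igf1r was nearest to the trend, at 0.15, with 38.2% of genes above it. Without the 4 libraries the ratios were 1.24 for Igf1, 1.02 for Mstn and 0.09 for Igf1r.

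The numbers that end the animals' titles fall into 5 runs of 33, 14, 21, 11 and 13 animals, whose meaning the labels do not give. Across these runs, 0 of the 9 genes differed in the limma F test with Benjamini-Hochberg adjustment over all genes, which called 0.0149% of the 13441 genes. At an unadjusted p under 0.05, 2 of the 9 differed, as did 1120 of all 13441 genes. These were Igfbp5, with p = 0.0103 and an adjusted p of 0.459, and Acvr1b, with p = 0.0254 and an adjusted p of 0.555. Igfbp5 averaged 10.11 ± 0.36 in the first run (n = 33) and 9.79 ± 0.38 in the last (n = 13), and these values overlap.

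The 9 genes were then compared with one another across animals. Each gene served in turn as the predictor in a limma fit over all other genes, and a pair was called where both of its fits had an adjusted p under 0.05. Of the 36 pairs, 2 were called. The predictors themselves called between 0% and 15.1% of all genes, and the share of pairs called lay within that range.

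Acvr1b and Igfbp5 rose together. Pearson's r was 0.40 (95% interval 0.21 to 0.56, permutation p = 0.00011) and Spearman's rho was 0.33 (permutation p = 0.00127), with a larger limma adjusted p of 0.0159. Igfbp5 rose by 0.14 ± 0.03 (SE) on the log2 scale per SD of Acvr1b. The correlation was 0.39 without the 4 libraries, with an adjusted p of 0.0223, and 0.40 or 0.31 without the 2 animals farthest from the median of Acvr1b or of Igfbp5, where the pair no longer passed, at an adjusted p of 0.128. It ranged from -0.10 to 0.62 within the 5 title-number runs and was positive in 4 of them, and the call was lost with the run as a covariate, at an adjusted p of 0.0553. It was also lost with rank normal scores (0.0529) and with the cell marker scores as covariates (0.211).

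Mstn and Igf1r moved in opposite directions, with r = -0.33 (95% interval -0.50 to -0.14, permutation p = 0.00143), rho = -0.29 (permutation p = 0.00534) and a limma adjusted p of 0.0231. Animal 84 had the lowest Mstn and the next to highest Igf1r, 4.62. Without the 4 libraries r was -0.26 and the adjusted p was 0.129, and without animal 84 alone r was -0.26 and the adjusted p was 0.127, so the call rests on that library. Within the runs r lay between -0.55 and 0.45.

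Another 2 pairs did not pass over 92 animals and passed without the 4 libraries. Acvr2b and Igf1r had r = 0.30 over 92 animals, with an adjusted p of 0.0722, and r = 0.35 over 88, with an adjusted p of 0.0344. It passed without animal 84 alone too, at 0.0338. Both genes followed the length trend described below, and with that trend as a covariate the slope of Igf1r per SD of Acvr2b went from 0.09 to 0.04 on the log2 scale and the adjusted p was 0.69. Igf1 and its receptor gene Igf1r had r = -0.28 over 92 animals, with an adjusted p of 0.102, and r = -0.34 over 88, with an adjusted p of 0.0483. This pair passed with the first 3 principal components as covariates as well, at 0.0484. It did not pass with the length trend (0.168), the cell marker scores (0.236) or the run (0.0814) as covariates. Nor did it pass with rank normal scores (0.0823) or without animal 84 alone (0.073). Within the runs its r lay between -0.72 and 0.06. Neither Igf1 with Igfbp5 (r = -0.28, adjusted p = 0.16) nor Igf1 with Acvr1b (r = -0.29, adjusted p = 0.0951) passed.

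Within the set, no relation was detected between Mstn and the receptor genes Acvr2b and Acvr1b or the inhibitor gene Fst. The receptor gene Acvr2a, outside the set, did rise with Mstn and is described with the pathway lists below. For Mstn and Acvr2b r was -0.08 (95% interval -0.28 to 0.13), for Mstn and Acvr1b 0.01 (-0.19 to 0.22), and for Mstn and its inhibitor Fst 0.01 (-0.19 to 0.22). None of these intervals reached the r of Acvr1b with Igfbp5, which was the largest of the set, and weaker relations of either sign lie within them. Within the runs r of Mstn with Acvr2b lay between -0.32 and 0.47. Between the receptors Acvr2b and Acvr1b r was -0.02. The correlation of Mstn with Smad3 was 0.20 over 92 animals and 0.03 without the 4 libraries, and with Smad7 it was 0.23 and 0.10.

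**Figure D2:**
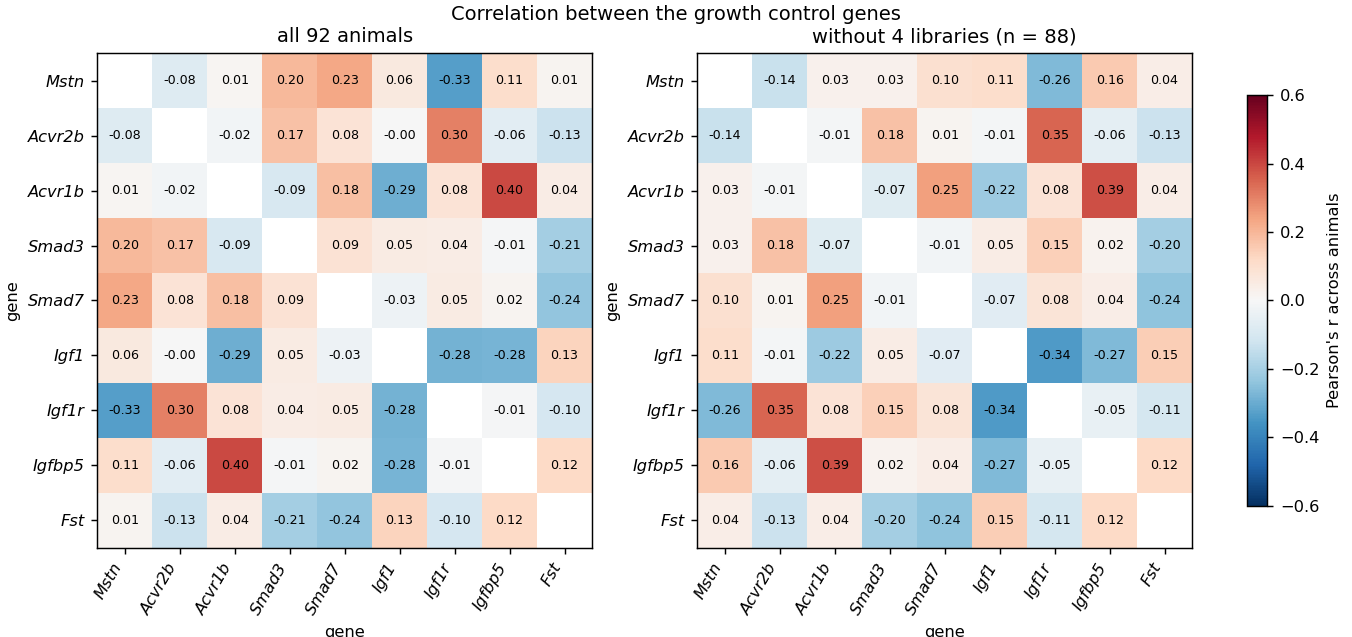
Pearson's r between the 9 genes over all 92 animals (left) and over 88 animals without the 4 libraries that stand apart (right), with red for positive and blue for negative values. Acvr1b with Igfbp5 stays at 0.40 and 0.39, whereas Mstn with Igf1r goes from -0.33 to -0.26.

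Over all genes, the number that moved with each of the 9 differed widely. Limma with Benjamini-Hochberg adjustment called 2028 of 13440 genes (15.1%) with Smad3, 1377 (10.2%) with Mstn, 1080 (8.04%) with Igf1r, 449 (3.34%) with Acvr2b, 422 (3.14%) with Igf1, 296 (2.2%) with Acvr1b, 135 (1%) with Igfbp5 and 2 (0.0149%) with Fst. With Smad7 limma called 0 genes (0%), and 1160 had an unadjusted p under 0.05. The count for Mstn rests on animal 84, its lowest library. Without that animal it was 545, of which 494 were also among the 1377.

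Acvr2b, Smad3 and Igf1r followed the length trend of the library, with r = 0.43, 0.41 and 0.45 (permutation p = 4e-05, 5e-05 and 2e-05) and adjusted p-values of 0.00011, 0.00023 and 5.6e-05. Spearman's rho was 0.43, 0.42 and 0.41 (permutation p = 2e-05, 4e-05 and 8e-05), and r without the 2 most extreme libraries was 0.47, 0.43 and 0.36. That trend called 34.9% of all genes. With it as a covariate the count fell to 74 for Acvr2b, 935 for Smad3 and 56 for Igf1r. The other 6 genes did not pass against it, with r between -0.08 and 0.15.

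Partners are named by Pearson's r over the 92 animals. For the partners named below that passed, the permutation p was 1e-05, the smallest that 100000 resamples can give, for r and at most 5e-05 for rho, except for Tmem26, which was read from the limma fit alone. Mstn had the closest partner of the set. Rab12, a small GTPase of vesicle traffic, ranged from 7.34 through a median of 7.97 to 8.53 and rose with Mstn at r = 0.74 (rho = 0.69, adjusted p = 8.31e-13). Animal 84 was lowest for both genes, the animal next lowest for Mstn was also next lowest for Rab12, and r was 0.69 without the 4 libraries and 0.57 to 0.83 within the runs. Rab12 rose by 0.15 ± 0.01 (SE) per SD of Mstn. Ttll7, an enzyme that adds glutamate chains to tubulin, rose with Mstn at r = 0.70 (rho = 0.65, adjusted p = 3.03e-11), and at 0.62 without the 4 libraries.

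Grb10, an adaptor that binds the insulin and IGF1 receptors and damps their signal, had the most negative correlation with Mstn. Its level ran from 4.15 through a median of 5.05 to 6.84, and it fell by 0.25 ± 0.04 (SE) per SD of Mstn (r = -0.58, rho = -0.52, adjusted p = 6.15e-07). Animal 84, lowest for Mstn, had the highest Grb10, whereas the next highest animal stood at 5.89. Without the 4 libraries r was -0.48 and the adjusted p was 0.00036, and r was between -0.74 and -0.15 within the runs.

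The receptors each had partners of their own. Acvr2b rose with Zfp398, a zinc finger gene (r = 0.65, rho = 0.62, adjusted p = 6.63e-08), and with Mrtfb, a coactivator of serum response factor (r = 0.59, rho = 0.58), and it was most opposed to S100a10, the annexin A2 partner (r = -0.46, rho = -0.45, adjusted p = 0.0016). With the length trend as a covariate these 3 still passed, at adjusted p-values of 0.00013 for Zfp398, 0.0023 for Mrtfb and 0.0315 for S100a10. Acvr1b rose with Fam78a (r = 0.60, rho = 0.56, adjusted p = 1.92e-06) and with Abcc1, an export transporter (r = 0.59, rho = 0.56). It moved against Tnfrsf12a, the receptor of the cytokine TWEAK, which ran from 2.12 through 3.89 to 5.67 (r = -0.58, rho = -0.52, adjusted p = 3.84e-06).

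The closest partners of Smad3 were Ppard, a nuclear receptor that turns on fatty acid oxidation (r = 0.70, rho = 0.65, adjusted p = 3.41e-10), and Acacb, the acetyl-CoA carboxylase that makes malonyl-CoA at mitochondria (r = 0.64, rho = 0.63, adjusted p = 1.8e-08). In the 88 other libraries r was 0.65 and 0.58. The most negative was the ribosomal protein gene Rps3a1 (r = -0.57, rho = -0.54), which is uncertain because near-identical copies may share its reads. For Smad7 none passed: Phlpp1, a phosphatase of AKT, had r = 0.42 (rho = 0.29, adjusted p = 0.233) and Itm2a r = -0.40 (rho = -0.29, adjusted p = 0.233).

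Igf1 rose with Npnt, an extracellular ligand of integrins (r = 0.57, rho = 0.60, adjusted p = 8.53e-06), and with Fgl2, a fibrinogen-like protein of immune cells (r = 0.57, rho = 0.57, adjusted p = 8.78e-06). It was most opposed to Flrt1, a membrane adhesion protein, which ran from -0.81 through 1.18 to 2.48 (r = -0.61, rho = -0.59, adjusted p = 1.07e-06). Animal 1, lowest for Igf1, was among the high animals for Flrt1, and without the 4 libraries r was -0.58. Within the runs it lay between -0.85 and -0.49. Igf1r rose with Gpam, the first enzyme of glycerolipid synthesis (r = 0.55, rho = 0.50, adjusted p = 0.00016), and Phc3, a Polycomb gene (r = 0.53, rho = 0.46), and moved against Eef1a2, the muscle form of the elongation factor (r = -0.54, rho = -0.42, adjusted p = 0.00028). With the length trend as a covariate Gpam and Eef1a2 passed, at 0.0404 and 0.024, and Phc3 did not, at 0.109.

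Igfbp5 shared its closest gene with Acvr1b. Fam78a rose with Igfbp5 at r = 0.61 (rho = 0.54, adjusted p = 9.47e-07), and within the runs r lay between 0.31 and 0.61. Slc44a2, a choline transporter-like gene, rose with Igfbp5 too (r = 0.50, rho = 0.43, adjusted p = 0.002), and the small heat shock gene Hspb6 fell (r = -0.49, rho = -0.50, adjusted p = 0.002, and 0.133 with the cell marker scores as covariates). For Fst the 2 genes called were Fgf7, a fibroblast growth factor made by stromal cells, which ran from 0.38 through 1.43 to 2.30 (r = 0.52, rho = 0.52, adjusted p = 0.0012), and Tmem26 (r = 0.46, adjusted p = 0.0249), a low gene with a mean of -0.16. Creb3l1, next in correlation with Fst among genes with a mean of at least 1, had r = 0.44 and an adjusted p of 0.0583.

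**Figure D3:**
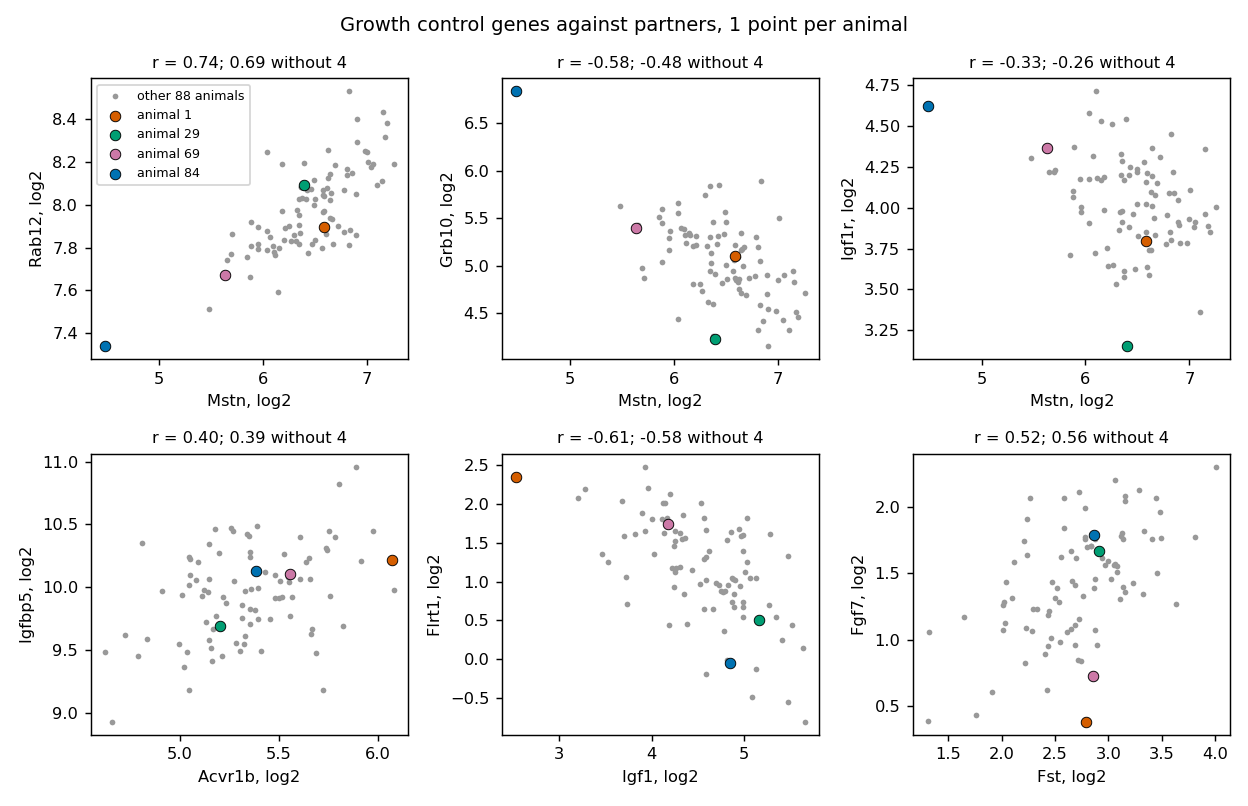
Log2 levels of 6 gene pairs in the 92 animals, 1 point per animal with the 4 libraries that stand apart in colour, and Pearson's r over 92 and over 88 animals above each panel. Mstn and Rab12 form a continuous band, r = 0.74 and 0.69, while the point of animal 84 lies alone at the low end of Mstn in each of its 3 panels.

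The other genes of the myostatin and IGF pathways were read from 8 lists holding 98 measured genes. With Mstn, 13 rose and 9 fell, 22.4% of the lists, where 5.88% of all genes rose and 4.37% fell. Leaving out the 4 libraries, 9 rose and 2 fell, and the share over all genes was 4.69%. Without animal 84 alone 10 of the 98 passed, against 4.06% of all genes, with the first 3 principal components as covariates 6, against 3.92%, and with the cell marker scores 9, against 4.35%. With Smad3, 17 rose and 9 fell, 26.5% of the lists, where 8.85% of all genes rose and 6.24% fell. With the length trend as a covariate 6 rose and 5 fell, against 6.96% of all genes called, and without the 4 libraries 14 rose and 5 fell, against 7.48%. Without animal 84 alone 16 passed, against 11.7%. With the first 3 principal components as covariates 0 of the 98 passed, and 8 genes were called with Smad3 over all genes. The counts for the receptors and Igf1 were lower. With Acvr2b 7 rose (2.46% of all genes) and 0 fell (0.885%), and with Igf1r 7 rose (4.18%) and 1 fell (3.85%). With Acvr1b 2 rose (0.945%) and 3 fell (1.26%), and with Igf1 3 rose (1.73%) and 1 fell (1.41%). Without the 4 libraries 4 of the 98 passed with Igf1r in place of 8, against 3.6% of all genes, and 2 with Igf1 in place of 4, against 2.49%, so both shares were near those of all genes. With the length trend as a covariate 10 passed with Acvr1b in place of 5, against 2.83%, and with the principal components 9, against 2.69%. Igf1 had 1 with the cell marker scores, against 0.484%, and 6 without animal 84, against 3.17%. With Smad7, Igfbp5 and Fst 0 of 98 passed, against 0%, 1% and 0.0149% of all genes.

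The counts by list below stand against the 5.88% of all genes that rose and the 4.37% that fell with Mstn, and without the 4 libraries against 4.69% called in either direction. Among receptors of the family, 3 of 11 rose with Mstn and 1 fell (3 and 0 without the 4 libraries). Those that rose included Acvr2a, the other type II receptor of myostatin, by 0.12 ± 0.03 (SE) per SD (r = 0.39, adjusted p = 0.0033, and 0.0496 without the 4 libraries). Of the 12 Smads and Smad regulators, 3 rose and 1 fell with Mstn (1 and 0 without the 4 libraries), and Zfyve9, an anchor that presents Smads to receptors, rose at r = 0.38 (adjusted p = 0.0048, and 0.0322 without the 4 libraries). Of 10 target genes of TGF-beta family signalling, a list that holds BMP targets of the Id family too, 1 rose and 2 fell (1 and 0 without the 4 libraries). Pmepa1, a feedback inhibitor, rose with Mstn (r = 0.44, adjusted p = 0.00061, and 0.0105 without the 4 libraries), and the matrix genes Postn (r = -0.42, adjusted p = 0.001) and Col1a1 (r = -0.36, adjusted p = 0.0082) fell. The matrix genes did not pass without the 4 libraries, at 0.203 and 0.219.

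Of the 21 genes of PI3K, AKT, mTORC1 and FoxO, 4 rose with Mstn and 0 fell, where 5.88% and 4.37% of all genes did (3 and 0 without the 4 libraries). One of them, Fbxo32, the ubiquitin ligase atrogin-1 that marks muscle wasting, was singled out after its values were seen: it rose by 0.18 ± 0.04 (SE) per SD of Mstn (r = 0.39, adjusted p = 0.0035), and at r = 0.44 with an adjusted p of 0.0019 without the 4 libraries. Of the 10 insulin and IGF receptor adaptors, 0 rose and 2 fell with Mstn, with the same counts without the 4 libraries. These were Grb10 and Shc1 (r = -0.44, adjusted p = 0.0015, and 0.0465 without the 4 libraries). With the first 3 principal components as covariates Acvr2a (0.348), Zfyve9 (0.352), Postn (0.239), Col1a1 (0.807), Fbxo32 (0.142) and Shc1 (0.218) did not pass with Mstn, and Pmepa1 did (0.00095). With the cell marker scores as covariates Acvr2a (0.0742), Zfyve9 (0.0536), Shc1 (0.108) and Col1a1 (0.114) did not pass, and Fbxo32 (0.0431), Postn (0.0154) and Pmepa1 (0.0033) did.

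Igf2, the fetal growth factor of the family, fell with Mstn (r = -0.53) and with Smad3 (r = -0.53). Animals 84 and 69 had the highest Igf2, 7.82 and 7.62, against a median of 4.41 and at most 6.32 in the 88 other libraries. The same animals were low for Mstn and Smad3. In the 88 other libraries Igf2 still fell with Smad3 (r = -0.42, adjusted p = 0.0023) and did not pass with Mstn (adjusted p = 0.0589).

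With Smad3, 6 of the 21 PI3K, AKT, mTORC1 and FoxO genes rose (28.6%, against 8.85% of all genes) and 0 fell, and without the 4 libraries 6 rose as well. With the first 3 principal components as covariates 0 of these 6 passed. Akt2, the AKT form that serves insulin-stimulated glucose uptake, rose by 0.15 ± 0.02 (SE) per SD of Smad3 (r = 0.59, within runs 0.33 to 0.86), and it passed with the length trend as a covariate too, at an adjusted p of 0.00013, and not with the principal components, at 0.0539. Rictor, the defining subunit of mTORC2, rose at r = 0.43 (adjusted p = 0.00061, and 0.0056 with the length trend), and Tsc1, which restrains mTORC1, at r = 0.44 (adjusted p = 0.00049, and 0.0666 with the length trend). Of the 12 Smads and regulators, 4 rose with Smad3, where 8.85% of all genes did. Smurf2, a ubiquitin ligase of Smads and receptors, rose at r = 0.50, and Smad4, the common partner of receptor Smads, at r = 0.41 (adjusted p = 0.0012, and 0.14 with the length trend). Tgfbr1, a type I receptor, rose at r = 0.41 (adjusted p = 0.0016, and 0.265 with the length trend), Furin, the protease that cuts TGF-beta family precursors, at r = 0.43 (adjusted p = 0.00055), and Tgfb1 fell at r = -0.40 (adjusted p = 0.002, and 0.068 without the 4 libraries). With the cell marker scores as covariates Smad4 (0.0818) and Tgfb1 (0.0937) did not pass.

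With the length trend as a covariate 0 of the 7 pathway genes that rose with Acvr2b passed, and 1 gene not called before, Foxo1, fell with it, while the share called over all genes went from 3.34% to 0.551%. Of the 8 called with Igf1r, 1 remained, Smad1, and the share over all genes went from 8.04% to 0.417%. Foxo1 and Smad1 were named after their values were seen. Irs1, the receptor adaptor of insulin and IGF1, rose with Acvr2b at r = 0.45 (adjusted p = 0.0022, and 0.0926 with the length trend). Bmpr1a, a BMP receptor, rose with Igf1r at r = 0.46 (adjusted p = 0.0011, and 0.222 with the length trend). With Acvr1b, Igfbp3, the main IGF carrier of blood, rose by 0.19 ± 0.04 (SE) per SD (r = 0.42, adjusted p = 0.0043, and 0.0039 with the length trend), and Bmp6 fell (r = -0.38, adjusted p = 0.0178, and 0.147 with the cell marker scores as covariates).

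**Figure D4:**
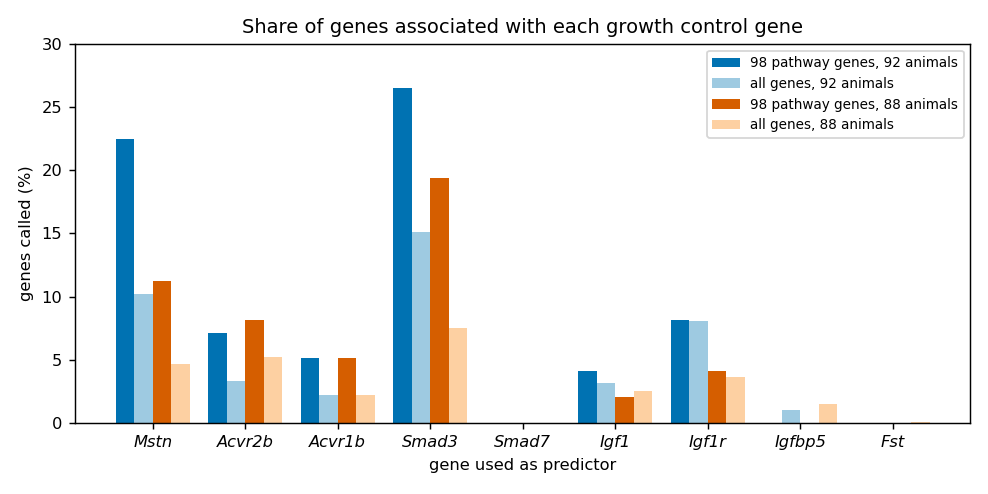
Percent of genes called (limma adjusted p under 0.05, vertical axis from 0) with each of the 9 genes as predictor, for the 98 pathway genes and for all genes, over 92 animals (blue) and over 88 without the 4 libraries that stand apart (orange). For Mstn the pathway share is 22.4% over 92 animals, and the share over all genes is 10.2%.

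Each gene was also set against 15 scores of marker genes, 11 for cell types and 4 for states of the tissue, where a score is the mean of a list's standardised genes. Of the 135 relations, 10 passed in limma with adjustment over all genes. Of these 10, 6 passed without the 4 libraries, and 2 others did, Mstn with the endothelial and with the Schwann cell score. The scores called between 0.0744% (satellite cell) and 22.3% (fast IIb fibre) of all genes. The clearest was Acvr1b with the clock output score, at r = 0.47 (rho = 0.46, permutation p = 1e-05 for r and 3e-05 for rho, adjusted p = 0.00074), a score that called 1.55% of all genes. With Acvr1b as predictor 4 of the 8 clock genes rose, where 0.945% of all genes did: Per3 (r = 0.53), Tef (r = 0.51), Nr1d2 (r = 0.43) and Ciart (r = 0.42). Nr1d1, the closest relative of Nr1d2, had r = -0.10. The score's r was 0.46 without the 4 libraries, 0.44 without the 2 most extreme animals and between -0.20 and 0.76 within the runs, positive in 4 of 5. The hour at which muscle was taken is not in the labels, and its part in this result was not tested.

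Igf1 rose with the macrophage score at r = 0.37 (rho = 0.31, permutation p = 0.00024 and 0.0032, adjusted p = 0.0019), which called 21.8% of all genes. With Igf1 as predictor 5 of the 8 macrophage markers rose, where 1.73% of all genes did. Among them were C1qb (r = 0.42), Mrc1 (r = 0.40) and C1qa (r = 0.37), and all 8 had a positive r. In the 88 other libraries 3 of the 8 passed, against 2.49% of all genes, and Cd68 (adjusted p = 0.078) and C1qc (0.119) did not. The summed level of the list ranged from 24.2 to 231 on the linear scale, and Adgre1, its defining surface marker, ranged from -0.20 to 4.11 on the log2 scale. With the 4 libraries left out r was 0.34. Igf1 also rose with the fibroblast score (r = 0.29, rho = 0.19, permutation p = 0.0057 and 0.064, adjusted p = 0.0273), which called 20.1% of all genes. It moved against the fast IIb fibre score (r = -0.30, rho = -0.28, permutation p = 0.0039 and 0.0071, adjusted p = 0.0203), which called 22.3%. With Igf1 as predictor, which called 3.14% of all genes, 1 of 8 fibroblast markers, Pdgfra, passed, and 0 of 9 fibre markers did. Neither score relation passed without the 4 libraries: r was 0.23 with the fibroblast score (adjusted p = 0.128) and -0.23 with the fast IIb fibre score (adjusted p = 0.153). With the cell marker scores as covariates, the genes called with Igf1 fell from 422 to 65, and the part of cell content in the Igf1 level was not tested further.

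Fst rose with the fibroblast score (r = 0.28, rho = 0.24, permutation p = 0.0058 and 0.019, adjusted p = 0.0308) and the macrophage score (r = 0.27, rho = 0.24, permutation p = 0.0089 and 0.019, adjusted p = 0.0395). With Fst as predictor 0 of 8 markers passed in either list, and only 0.0149% of all genes did. Neither score relation passed without the 2 most extreme animals, at adjusted p-values of 0.15 and 0.178, or with the title-number run as a covariate, at 0.0606 and 0.0833. The summed level of the fibroblast list ranged from 548 to 2107 on the linear scale. Fst and its partner Fgf7 kept their relation with the cell marker scores as covariates, at an adjusted p of 0.0277. Mstn rose with the fast IIb fibre score (r = 0.28, adjusted p = 0.0339), but rho was 0.11 (permutation p = 0.312) and r was 0.14 without the 2 most extreme animals, so this relation rests on those. Without the 4 libraries r was 0.19 and the adjusted p was 0.254. Its fibre genes Myh4 (r = 0.48), Tnnt3 (r = 0.36) and Mybpc2 (r = 0.35) rose with Mstn over 92 animals, as did 5.88% of all genes. The other 6 of the 9 fibre markers did not pass, with adjusted p-values from 0.081 (Tnni2) to 0.976 (Mylpf), and Casq1 had r = -0.16. Myh4, Tnnt3 and Mybpc2 did not pass without the 4 libraries, at adjusted p-values of 0.0553, 0.149 and 0.229, where 4.69% of all genes were called.

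Acvr1b rose with the fast IIb fibre score (r = 0.30, rho = 0.30, permutation p = 0.0039 and 0.0037, adjusted p = 0.022) and fell with the macrophage score (r = -0.29, rho = -0.32, permutation p = 0.0056 and 0.0018, adjusted p = 0.026). Of the 9 fibre markers 1 passed with Acvr1b as predictor, Mybpc2 (r = 0.35), and of the 8 macrophage markers 0 did, although all 8 had a negative r. Over all genes 0.945% rose with Acvr1b and 1.26% fell. The fibre score did not pass without the 4 libraries, with r = 0.28 and an adjusted p of 0.0761. Acvr2b fell with the glucocorticoid-responsive score (r = -0.33, rho = -0.38, permutation p = 0.0013 and 0.00017, adjusted p = 0.0184), which called 9.1% of all genes. With Acvr2b as predictor 2 of the 8 genes of the score fell, Mt2 and Tsc22d3, where 0.885% of all genes did. Neither of the 2 passed with the length trend as a covariate, at adjusted p-values of 0.18 and 0.125, where 0.551% of all genes were called.

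**Figure D5:**
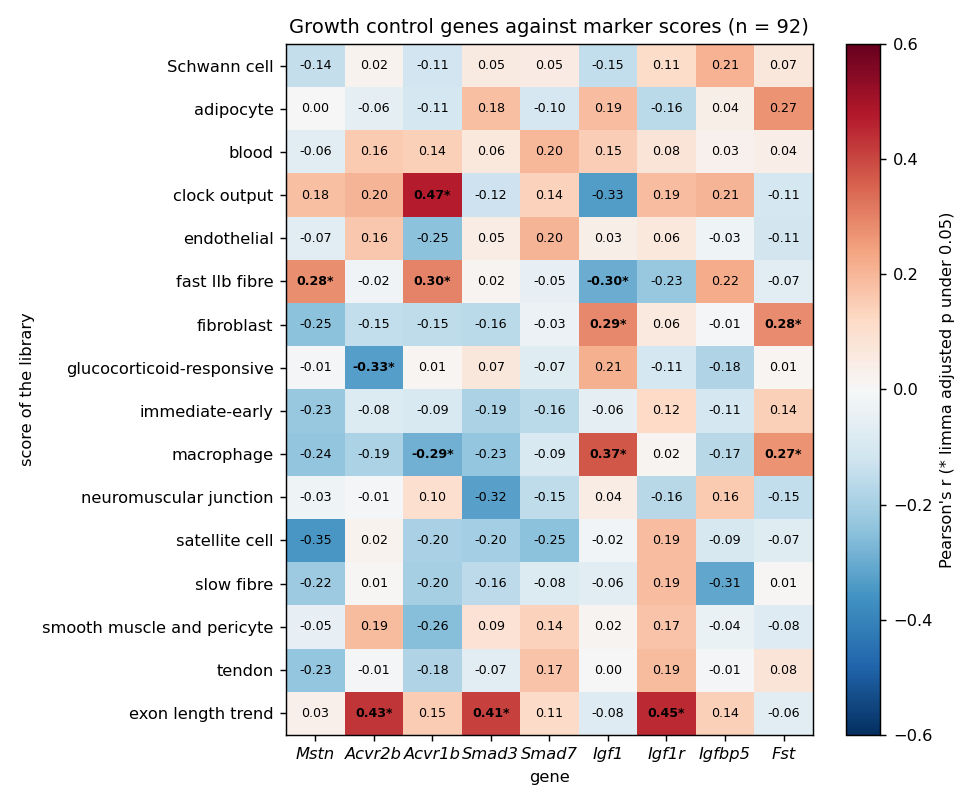
Pearson's r over 92 animals between each of the 9 genes (columns) and 15 marker scores plus the exon length trend of the library (rows), with an asterisk where the limma adjusted p is under 0.05. Acvr1b with clock output, 0.47, and Igf1 with the macrophage score, 0.37, are the largest among the marker scores.

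Animal 84 lay farthest from the median profile over all genes, with a root mean square difference of 0.73 on the log2 scale, against 0.71 in animal 69, the next. Beside the lowest Mstn, Smad3 and Smad7, it had the highest Grb10 (6.84), Shc1 (4.63), Tgfb1 (4.11), Postn (6.87) and Igf2 of all 92 animals, and the lowest Wfikkn2, a myostatin-binding protein of muscle (2.29, against a median of 3.88). Of the 98 pathway genes, 6 lay more than 3 SD above and 6 more than 3 SD below their means there. Its marker scores were 3.92 SD above the mean for satellite cells, 3.43 for macrophages and 2.53 for fibroblasts, and 3.25 SD below it (score -3.25) for fast IIb fibres. Its Igf1 (4.84), Igfbp5 (10.13), Acvr1b (5.38) and Fst (2.86) were within 1 SD of the mean.

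Animal 29, lowest for Igf1r, had the lowest Acvr2a (4.79), Tgfbr1 (4.32), Bmpr1a (5.79) and Bmpr2 (5.68) as well, and 10 of the 98 pathway genes lay more than 3 SD below their means there. It also had the lowest length trend of the 92 libraries, -0.40, and what part that had in its low receptor values was not tested. Animal 1, lowest for Igf1, had the highest Acvr2a (6.45), the next to highest Acvr1b and a fast IIb fibre score of 3.21 SD, with a macrophage score of -2.21.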

How the data were processed

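Quadriceps RNA of 92 mouse samples was analysed from 1 table of deposited log2 values, with genes in lines and animals in columns. Per the submitters' processing notes, bcl2fastq, MultiQC, kallisto 0.50.1, edgeR and mm10 were used, with no role or order given, and the filter on low genes is not given in the sources used here. The scale was read from the values: linear sums per animal ran from 898071 to 1140761. Of 13456 lines, 15 repeats were removed. The members and lists were chosen with earlier results of these data known.

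Fits used limma 3.58.1 (empirical Bayes, mean-variance trend, R 4.3.3), with a slope per SD of the predictor and Benjamini-Hochberg adjustment over all genes, checked on simulated data. The labels do not say outright that each sample is a separate mouse, and the p-values take the 92 samples as independent. Correlations are Pearson and Spearman with two-sided permutation tests of 100000 resamples. Named partners were the 2 highest and the 1 lowest r per gene among genes with a mean of at least 1, and up to 3 genes per pathway list by smallest adjusted p. Exon lengths and coordinates come from GENCODE M21 (GRCm38), covering 98.6% of genes, and promoters from RefSeq. Printed promoter stretches leave out the 5 bases for Acvr1b and 19 for Igfbp5 that lie past the GENCODE start.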

Additional observations from a re-analysis of the deposited data

How the results depend on the processing

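No paired analysis was possible because the animals form 1 group. The share of genes called moved by over 1.5 times under these settings. With rank normal scores it was 5.58% for Mstn, 1.88% for Igf1, 0.506% for Igfbp5 and 0.00744% for Fst, and 0 pairs of the 9 genes were called. With the title-number run as a covariate it was 0.521% for Igfbp5 and 0.00744% for Fst, and 1 pair was called. With 3 principal components it was 3.92% for Mstn, 1.12% for Acvr2b, 0.0595% for Smad3 and 0.00744% for Fst. With cell marker scores it was 4.35% for Mstn, 7.44% for Smad3, 0.484% for Igf1, 5.35% for Igf1r, 0.372% for Igfbp5 and 0.00744% for Fst, with 0 pairs. Leaving out the 2 animals farthest from the predictor's median gave 4.06% for Mstn, 1.98% for Acvr2b, 9.63% for Smad3, 1.72% for Igf1, 2.49% for Igf1r, 0.647% for Igfbp5 and 0.00744% for Fst, with 0 pairs and 5 marker-score relations in place of 10, of which 4 were among the 10 and 1 was new, Mstn with the endothelial score. Of the 10 marker-score relations, 7 passed with rank normal scores and 8 with the run as a covariate. With sample medians set equal 13 passed, 9 of the 10 (not Fst with the macrophage score) and 4 new ones: Mstn with the fibroblast and macrophage scores, Smad3 with the macrophage score and Igf1 with clock output. With only genes of a mean of at least 1, Fst called 0.009%. When all genes were tested against the title number as 1 continuous predictor instead of the runs, 1 gene was called in place of 2.

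Settings added after seeing the data moved shares too. Leaving out the 4 libraries gave 4.69% for Mstn, 5.24% for Acvr2b, 7.48% for Smad3, 3.6% for Igf1r, 1.51% for Igfbp5 and 0.0298% for Fst, and leaving out animal 84 alone gave 4.06% for Mstn. With the length trend it was 0.551% for Acvr2b, 6.96% for Smad3 and 0.417% for Igf1r. All 10 relations passed with the length trend, and so did Igfbp5 with the fast IIb fibre score. No called pair or marker-score relation changed direction under any setting run, and the cause of these shifts was not tested. The depth of the libraries is unknown, so how far counting error limits low genes such as Acvr2b, Smad7 and Fst cannot be given.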
